A study of Mus musculus with 6 samples.

Results

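The ER HSP70 machine is the chaperone system that folds proteins in the lumen of the endoplasmic reticulum (ER). Its 10 genes were taken by name and followed in livers of female LERKO and CT mice: the HSP70 chaperones Hspa5 and Hyou1, the HSP90 chaperone Hsp90b1, the nucleotide exchange factor Sil1, the J-proteins Dnajb9, Dnajb11, Dnajc1, Dnajc3 and Dnajc10, and the J-protein partner Sdf2l1. For each gene the array's probe sets (groups of probes read out as 1 value) that belong to that gene alone were used, and where a gene had several the one with the highest mean over the 6 arrays was taken. Of the 10 genes, 9 had such a probe set, among 18820 genes with one on the array. Dnajc1 was represented only by a probe set shared by 2 genes and is not measured here. A signal of 100 (6.64 on the log2 scale) in at least 1 array was reached by 8 of the 9, among 6902 genes, and Dnajc10 lay below it in every array.

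HSP70 chaperones bind unfolded stretches of protein and release them in a cycle driven by ATP. J-proteins bring substrates to HSP70 and trigger ATP hydrolysis, exchange factors release the ADP that follows, and HSP90 takes over some of the clients. In the ER of the hepatocyte, which secretes most plasma proteins, the HSP70 is BiP, the product of Hspa5. Many genes of this system are switched on by the unfolded protein response (UPR), the signalling from ER to nucleus that answers a load of unfolded protein through the sensors Ern1, Atf6 and Eif2ak3.

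The study asked how the transcriptome of the liver differs when estrogen receptor alpha (ERα, the product of Esr1) is lost there only. LERKO mice (Alb-cre/ERα fl/fl) carried floxed ERα alleles and cre recombinase driven by the albumin promoter, which is active in hepatocytes. CT mice (ERα fl/fl) carried the same floxed alleles without cre, so that an effect of cre and an effect of losing ERα cannot be told apart. Both groups were females on a C57BL/6J background, fed freely, and the age and fasting state of the mice on the arrays are not given in the sources used here. Total RNA of whole liver from 3 LERKO and 3 CT mice, labelled as biological replicates, was hybridised to Affymetrix Mouse Gene 1.1 ST arrays, 1 array per mouse. Values are RMA signals on the log2 scale, in which a difference of 1 is a doubling, and a level can be set against that of the same probe set in another array but not against another gene.

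Each array had 9452 to 9865 probe sets at a signal of 100 or more. Esr1 had 6.75, 7.06 and 6.77 in LERKO livers, against 8.45, 8.78 and 8.29 in CT livers, so that the deleted gene was lower in every LERKO array (log2 fold change −1.65, SE 0.15, limma adjusted p = 0.149). Where its probes lie relative to the deleted exon was not examined. The 8 hepatocyte markers, Alb and Hnf4a among them, all passed a signal of 100 in both groups, and their summed linear signal was 65823 to 68377 in LERKO livers and 65814 to 68601 in CT livers. A pair of arrays stood apart by genes of other organs. In LERKO replicate 2 the 6 measured adrenal cortex markers summed to 7139, beside 61.4 to 81.0 in the 5 other arrays. In CT replicate 3 the 8 measured markers of the pancreatic acinar cell summed to 1898.8, beside 95.6 to 104.3 elsewhere, and skeletal muscle and squamous epithelium markers to 892.7 and 1342.5, beside at most 239.4 and 60.2 elsewhere.

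Matches to the DNA elements through which the UPR acts were looked for near the start sites of the 10 genes, and the stretches that hold them are shown because these genes differ in what their starts carry. Promoter windows of 300 bases, 250 before and 50 after the start, came from RefSeq (GRCm38.p6) and were found for 8 of the 10 members, Hyou1 and Sil1 being the others. On both strands, 4 motifs were searched: the ER stress response element (ERSE, CCAAT and CCACG separated by 9 bases), ERSE-II (ATTGG and CCACG separated by 1 base), the core of the UPR element (UPRE, TGACGTG) and the full palindromic estrogen response element (ERE, GGTCA and TGACC separated by 3 bases). No match overlapped another. The sequences run 5′ to 3′ on the gene's strand, with the motif letters in capitals.
Hspa5, chr2:34771925-34772089, plus strand: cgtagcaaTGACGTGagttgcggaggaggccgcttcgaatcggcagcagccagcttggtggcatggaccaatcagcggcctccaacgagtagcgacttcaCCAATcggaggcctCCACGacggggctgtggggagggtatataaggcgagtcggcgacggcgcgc
Hsp90b1, chr10:86705525-86705664, minus strand: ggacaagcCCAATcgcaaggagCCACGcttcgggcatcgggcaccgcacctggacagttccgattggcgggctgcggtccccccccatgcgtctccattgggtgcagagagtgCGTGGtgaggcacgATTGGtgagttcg
Dnajc3, chr14:118937812-118937861, plus strand: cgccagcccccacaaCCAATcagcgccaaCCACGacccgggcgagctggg
Dnajb11, chr16:22857843-22857872, plus strand: ccggcggcgATTGGcCCACGcctggctgct

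The Hspa5 stretch holds the UPRE core from −157 to −151 and an ERSE from −65 to −47 before the start. In Hsp90b1 an ERSE lies from −212 to −194 and another, on the opposite strand, from −107 to −89. Dnajc3 carries an ERSE from −105 to −87, and Dnajb11 an ERSE-II from 8 to 18 bases after the start. The windows of Dnajb9, Dnajc1, Dnajc10 and Sdf2l1 held no match, and no member's window held the ERE. Among all 32851 windows, 0.119% held an ERSE, 0.0365% an ERSE-II, 2.01% the UPRE core and 0.07% the ERE. These matches are letters in a window and say nothing of binding in these livers.

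Most members had a lower signal in LERKO liver than in CT liver. No member passed an adjusted p of 0.05 in the limma fit over 10633 probe sets (0 of 8, beside 0% of all probe sets). At an unadjusted p under 0.05, 5 of 8 were lower in LERKO livers (Hspa5, Hyou1, Hsp90b1, Dnajb11 and Sdf2l1), beside 4% of all probe sets, and 0 of 8 were higher, beside 2.98%. For 7 of 8 every LERKO array lay below every CT array, beside 7.13% of all probe sets, and for 0 of 8 every LERKO array lay above, beside 5.91%. The median log2 fold change was −0.39 over the 8 members and −0.0099 over all probe sets. The members were chosen with earlier results of these data known, so these counts are not independent of that choice. In whole-liver signals fewer cells of a type and less RNA per cell cannot be told apart for a single gene. The log2 fold changes of the 8 hepatocyte markers lay between −0.08 (Serpina1c) and 0.08 (Cyp2e1). Those of Alb and Hnf4a were 0.008 and −0.0016, and those of Hspa5 and Hyou1 were −0.54 and −0.99. Whether the share of hepatocytes differed between the groups was not tested.

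**Figure D1:**
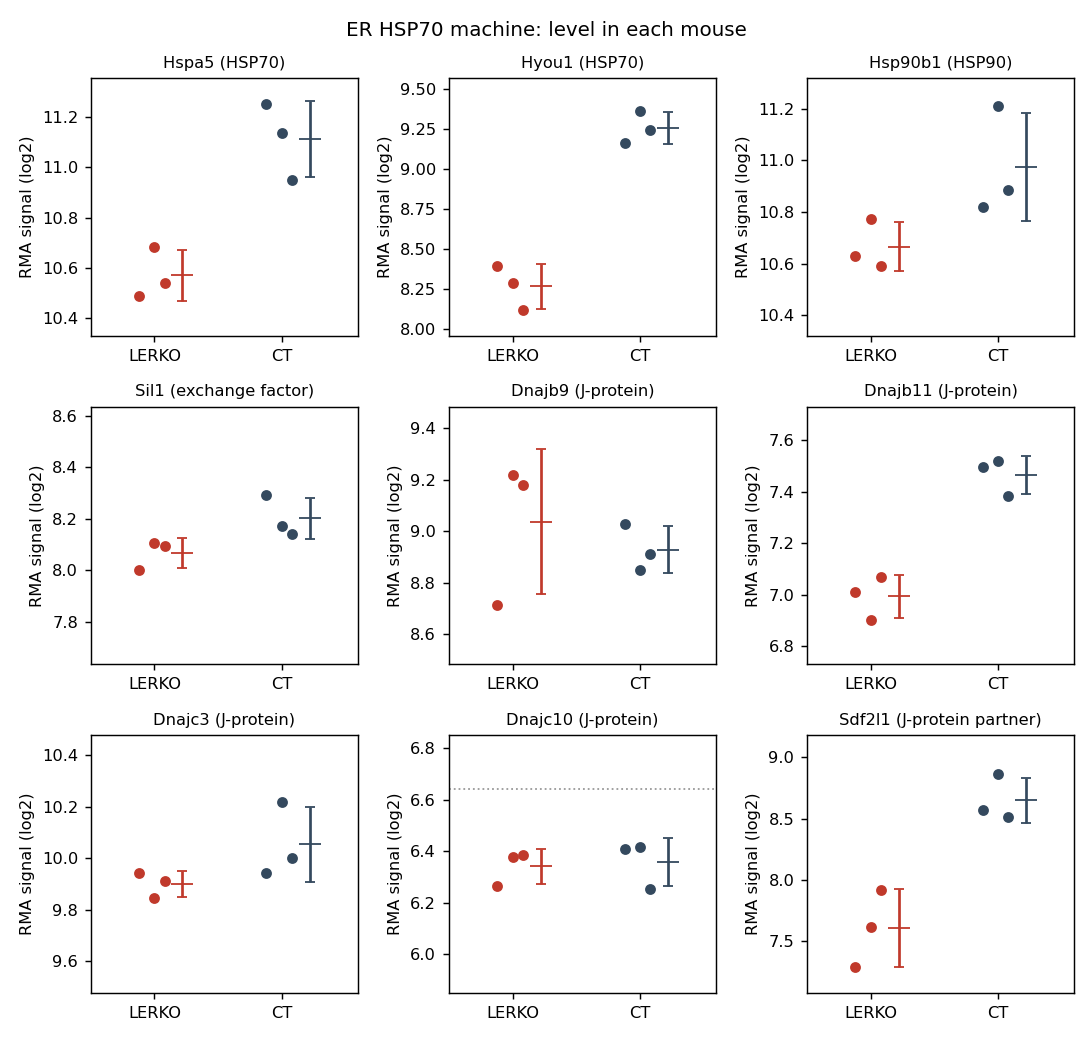
RMA signal (log2, vertical axes, with a range of their own in each panel) of the 9 measured members in each LERKO (red) and CT (blue) mouse; points are mice, and the bars beside them give the mean and SD of 3. Hyou1 and Sdf2l1 show the widest gaps between the groups, Dnajb9 overlaps, and Dnajc10 lies below the dotted line at a signal of 100.

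Both HSP70 genes were lower in LERKO livers, Hyou1 more than Hspa5. Hspa5, the central chaperone of the system, had 10.49, 10.68 and 10.54 in LERKO livers, against 11.25, 11.14 and 10.95 in CT livers. The highest LERKO mouse lay 0.27 below the lowest CT mouse. The log2 fold change was −0.54 (SE 0.10, 95% interval −0.79 to −0.30, limma adjusted p = 0.703, rank 18 by p among 10633 probe sets), so the mean LERKO signal was 68.6% of that in CT.

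Hyou1 encodes a large relative of HSP70 that binds unfolded protein and also acts as an exchange factor for BiP. Its signal was 8.39, 8.29 and 8.12 in LERKO livers, against 9.16, 9.36 and 9.24 in CT livers. The groups were separated by 0.77, the widest gap among the members, and LERKO livers had 50.5% of the CT signal. The log2 fold change was −0.99 (SE 0.10, 95% interval −1.22 to −0.76, limma adjusted p = 0.149), the smallest p among the 10633 probe sets after that of Esr1. Where a signal of 100 was required in all 6 arrays, the adjusted p of Hyou1 was 0.0409. In that fit 3 of 8849 probe sets (0.0339%) passed 0.05, namely Esr1, Hyou1 and Creld2, an ER protein induced by unfolded protein that is no member and was named after its values were seen, to complete the count.

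Hsp90b1, the HSP90 of the ER, which folds integrins and Toll-like receptors among others, had 10.63, 10.77 and 10.59 in LERKO livers, against 10.82, 11.21 and 10.89 in CT livers. The groups did not overlap, but were only 0.049 apart, and CT replicate 2 stood above the other CT mice. The log2 fold change was −0.31 (SE 0.12, 95% interval −0.59 to −0.02, limma adjusted p = 0.703, rank 560). Its unadjusted p was no longer under 0.05 without LERKO replicate 1, LERKO replicate 3 or CT replicate 2, with log2 fold changes of −0.29, −0.27 and −0.19, so that 4 members were lower by that rule in each of those fits. The share of all probe sets lower in those fits was not computed.

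Sil1 is the dedicated exchange factor of BiP, and its loss causes a disorder of muscle and cerebellum in humans. Its values were 8.002, 8.11 and 8.09 in LERKO livers, against 8.29, 8.17 and 8.14 in CT livers. The groups were 0.034 apart, and the difference did not pass the test (log2 fold change −0.13, 95% interval −0.31 to 0.04, limma adjusted p = 0.748, rank 1639). Without CT replicate 1, the highest CT mouse, the log2 fold change was −0.088. The lower end of the interval with all mice leaves room for a signal lower by 0.31 on the log2 scale but not for one like that of Hyou1.

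Among the tested J-proteins the log2 fold change ranged between −0.47 and 0.11. Dnajb11, a soluble J-protein that binds unfolded chains and delivers them to BiP, had 7.01, 6.90 and 7.07 in LERKO livers, against 7.50, 7.52 and 7.38 in CT livers. The groups were 0.31 apart, with a log2 fold change of −0.47 (SE 0.08, 95% interval −0.66 to −0.29, limma adjusted p = 0.703, rank 9), and LERKO livers had 72.1% of the CT signal.

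Sdf2l1 carries no J domain itself but forms a stable complex with Dnajb11 that keeps aggregation-prone proteins in solution. Its signal was 7.29, 7.61 and 7.92 in LERKO livers, against 8.57, 8.86 and 8.51 in CT livers. It had the largest fold change among the 8 tested members (log2 fold change −1.04, SE 0.18, 95% interval −1.46 to −0.62, limma adjusted p = 0.703, rank 11), with 48.5% of the CT signal in LERKO livers. It also had the widest spread within LERKO (SD 0.32, n = 3), and the groups were 0.59 apart. The partners of this complex were both lower in LERKO livers, and their mice were not in the same order within LERKO, where Sdf2l1 was lowest in replicate 1 and Dnajb11 in replicate 2.

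Dnajc3, a lumenal J-protein that also binds misfolded chains, had 9.94, 9.84 and 9.91 in LERKO livers, against 9.94, 10.22 and 9.9999 in CT livers. The highest LERKO mouse and the lowest CT mouse were 0.0011 apart, so that its place among the 7 separated members rests on that difference alone. The log2 fold change was −0.15 (SE 0.09, 95% interval −0.37 to 0.06, limma adjusted p = 0.758), and without CT replicate 2 it was −0.07. The gene has 2 probe sets on the array with identical values, counted as 1.

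Dnajb9 is the J-protein that brings BiP to the UPR sensor encoded by Ern1 and to misfolded proteins marked for degradation. It had 8.71, 9.22 and 9.18 in LERKO livers, against 9.03, 8.85 and 8.91 in CT livers, and was the only tested member whose groups overlapped. LERKO replicate 1 was the lowest of the 6 mice and LERKO replicates 2 and 3 the highest. The log2 fold change was 0.11 (SE 0.15, 95% interval −0.24 to 0.46, limma adjusted p = 0.884, rank 5835). Without LERKO replicate 1 it was 0.27, at an unadjusted p under 0.05 (adjusted p = 0.991), and without LERKO replicate 2 it was 0.02.

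Dnajc10 combines a J domain with thioredoxin domains that reduce disulfide bonds of misfolded proteins. Its values were 6.26, 6.38 and 6.38 in LERKO livers, against 6.41, 6.42 and 6.25 in CT livers, below a signal of 100 throughout. In a fit of all 35556 probe sets the log2 fold change was −0.016 (SE 0.09, 95% interval −0.23 to 0.20, limma adjusted p = 0.991). At signals this low a difference may be understated.

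**Figure D2:**
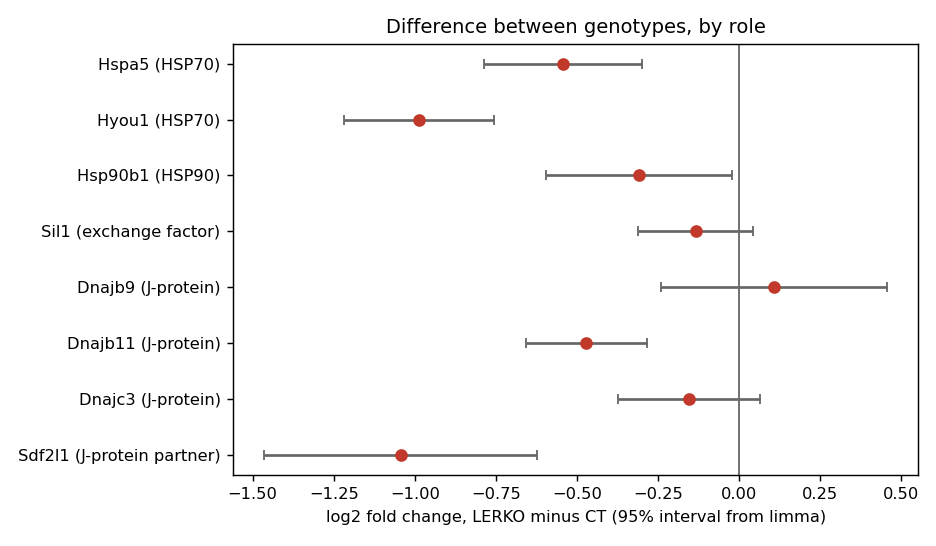
Log2 fold change, LERKO minus CT (horizontal axis), of the 8 tested members with the 95% interval from limma. The intervals of Hspa5, Hyou1, Hsp90b1, Dnajb11 and Sdf2l1 lie below 0, and those of Sil1, Dnajb9 and Dnajc3 include 0; none passed an adjusted p of 0.05.

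The members were then followed together within each mouse. After each gene was centred on its mean over the 6 arrays, the mean of the 8 members was −0.30, −0.18 and −0.18 in LERKO replicates 1, 2 and 3, against 0.21, 0.31 and 0.14 in CT replicates 1, 2 and 3. LERKO replicate 1 was the lowest LERKO mouse for 4 of the 8 genes and CT replicate 2 the highest CT mouse for 5. CT replicate 3 was the highest CT mouse for none of the 8 and the lowest for 4.

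**Figure D3:**
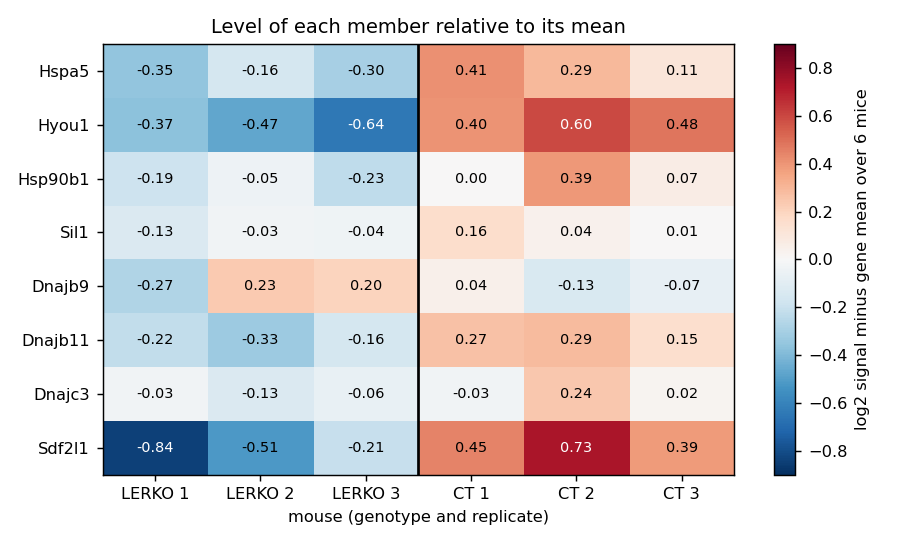
Level of each tested member in each mouse as the log2 signal minus the gene's mean over the 6 mice (colour and printed value; rows are genes, columns LERKO and then CT mice). Hyou1 and Sdf2l1 reach the strongest colours on both sides, though not in every mouse, and the row of Dnajb9 does not follow the genotypes.

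The balance between the partners was examined as the log2 signal of each gene minus that of Hspa5 in the same array, compared between genotypes by a two-sided exact permutation test. With 3 mice against 3 this test cannot give less than 0.10, and p-values were adjusted over 7 genes. Relative to Hspa5, Dnajb9 was 0.65 higher, Sil1 0.41 higher and Dnajc3 0.39 higher in LERKO livers, and Hyou1 had a difference of −0.44, each with all LERKO mice on one side of all CT mice (exact p = 0.10, adjusted p = 0.175). For Sdf2l1 (difference −0.50) and Hsp90b1 (difference 0.23) the groups overlapped (exact p = 0.20, adjusted p = 0.233). Dnajb11 differed least relative to Hspa5, by 0.07 (exact p = 0.60). Hspa5 itself had a log2 fold change of −0.54, so a gene with no difference of its own would also come out higher relative to it. On their own, Dnajb9, Sil1 and Dnajc3 had log2 fold changes of 0.11, −0.13 and −0.15. The share of all genes that separate the genotypes relative to Hspa5 was not computed.

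The arrays with genes of other organs are 1 in each group. Without LERKO replicate 2 and CT replicate 3, a setting chosen after the data were seen, 5 of 8 members were lower at an unadjusted p under 0.05. The share of all probe sets lower at that threshold in this fit was not computed. In that fit the log2 fold change was −0.68 for Hspa5, −1.004 for Hyou1, −0.41 for Hsp90b1, −0.47 for Dnajb11 and −1.12 for Sdf2l1. The median over the 8 members was −0.44, against −0.39 with all arrays. Secretory cells of other types are rich in these chaperones, so their markers were examined as well. Of the 7 measured plasma cell and B cell markers, 1 (Cd79b) reached a signal of 100 in any array, and the list summed to 227.4, 155.4 and 164.1 in LERKO livers, against 182.0, 166.0 and 209.1 in CT livers. The 6 macrophage and leukocyte markers summed to 2486, 2647 and 2298 in LERKO livers, against 2580, 1957 and 2756 in CT livers. Both sums overlapped between the groups, and their part in the result was not tested.

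**Figure D4:**
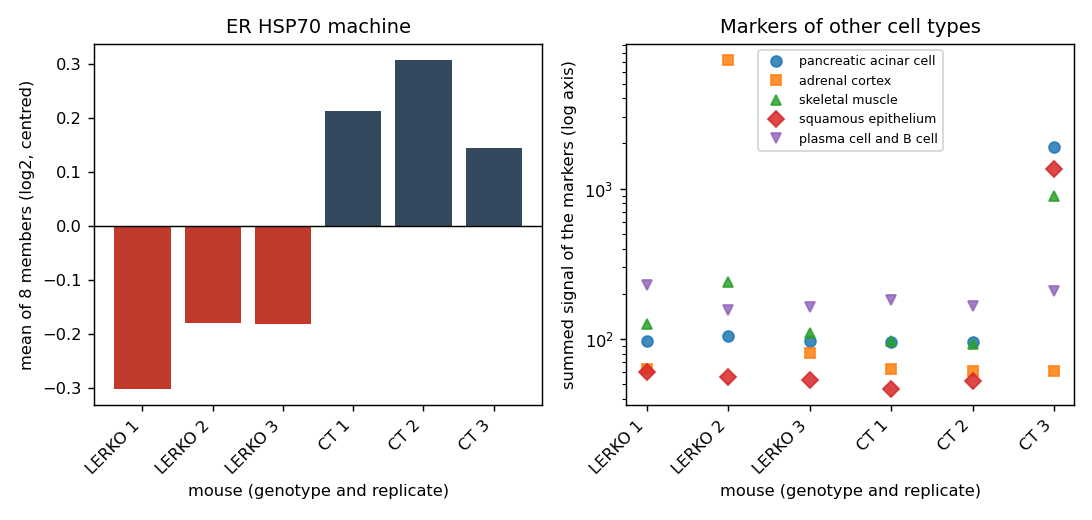
Left, mean over the 8 tested members of the log2 signal centred on each gene's mean over the 6 mice, by mouse. Right, summed linear signal (log axis) of the markers of 5 other cell types in the same mice; adrenal cortex markers are high in LERKO replicate 2, and pancreatic, muscle and squamous markers in CT replicate 3, whereas the mean of the members is below 0 in the 3 LERKO mice and above 0 in the 3 CT mice.

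The neighbouring chaperone systems were set beside the members, each as a list of named genes, and none of their genes passed an adjusted p of 0.05 in limma, beside 0% of all probe sets. At an unadjusted p under 0.05, 4% of all probe sets were lower in LERKO livers and 2.98% were higher. Of 13 further ER partners of HSP70, 8 were tested, 2 (25%) were lower in LERKO livers at an unadjusted p under 0.05 and 0 were higher, with a median log2 fold change of −0.0004. Manf, a secreted ER protein that binds BiP and stabilises its complexes with clients, had 5.86, 6.07 and 5.81 in LERKO livers, against 7.02, 6.94 and 6.56 in CT livers. Its log2 fold change was −0.93 (SE 0.14, limma adjusted p = 0.568). The groups did not overlap, and the values of all LERKO mice and of CT replicate 3 lie below a signal of 100. Hspa13, an HSP70 relative of the ER, had a log2 fold change of −0.46 (limma adjusted p = 0.703), and Sec62, a part of the translocon, one of 0.15 (limma adjusted p = 0.742).

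Of 14 ER lectins and disulfide isomerases, 11 were tested, with 4 (36.4%) lower at an unadjusted p under 0.05, beside 4% of all probe sets, 0 higher and a median log2 fold change of −0.15. The 3 smallest p values were those of Pdia3, the isomerase that works with the lectins calnexin and calreticulin (log2 fold change −0.26), Ero1b, which oxidises the isomerases (−0.36), and Pdia5 (−0.32), each at a limma adjusted p of 0.703. The isomerases had smaller fold changes than Hyou1 and Sdf2l1, the range of the list being −0.36 to 0.14.

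Among 12 sensors and effectors of the UPR, 7 were tested, and Xbp1, the transcription factor made active by the sensor Ern1, was the only one at an unadjusted p under 0.05 (14.3% lower, beside 4% of all probe sets). It had 10.60, 10.55 and 10.36 in LERKO livers, against 10.84, 10.90 and 10.88 in CT livers (log2 fold change −0.37, SE 0.08, limma adjusted p = 0.703). The probe set does not tell spliced from unspliced Xbp1 in these values. Atf6b and Eif2ak3 had log2 fold changes of −0.09 and −0.04, and the median of the list was −0.02.

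The HSP70 and HSP90 machines of the cytosol and of mitochondria were described in the same way. In the cytosol, 18 of 22 genes were tested, 1 (5.56%) was lower and 3 were higher at an unadjusted p under 0.05, and the median log2 fold change was −0.03. Beside these stand 4% lower and 2.98% higher over all probe sets. The one lower was Hsp90aa1, the inducible cytosolic HSP90, with 9.02, 8.73 and 8.72 in LERKO livers, against 9.42, 9.32 and 9.17 in CT livers (log2 fold change −0.48, SE 0.11, limma adjusted p = 0.703). Hspa4 and Bag3, both exchange factors of cytosolic HSP70, each had a log2 fold change of 0.27 (limma adjusted p = 0.703), with every LERKO array above every CT array. In mitochondria, 10 of 11 genes were tested, 2 (20%) were lower and 0 higher, with a median of 0.03. The lower genes were Trap1, the mitochondrial HSP90 (log2 fold change −0.61, limma adjusted p = 0.703), and Grpel2, an exchange factor (−0.17, limma adjusted p = 0.703), and the next by p, Dnajc19, had 0.13 (limma adjusted p = 0.758). The lists differ in size and in signal, and no test of one list against another was made. They too were chosen with earlier results of these data known.

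**Figure D5:**
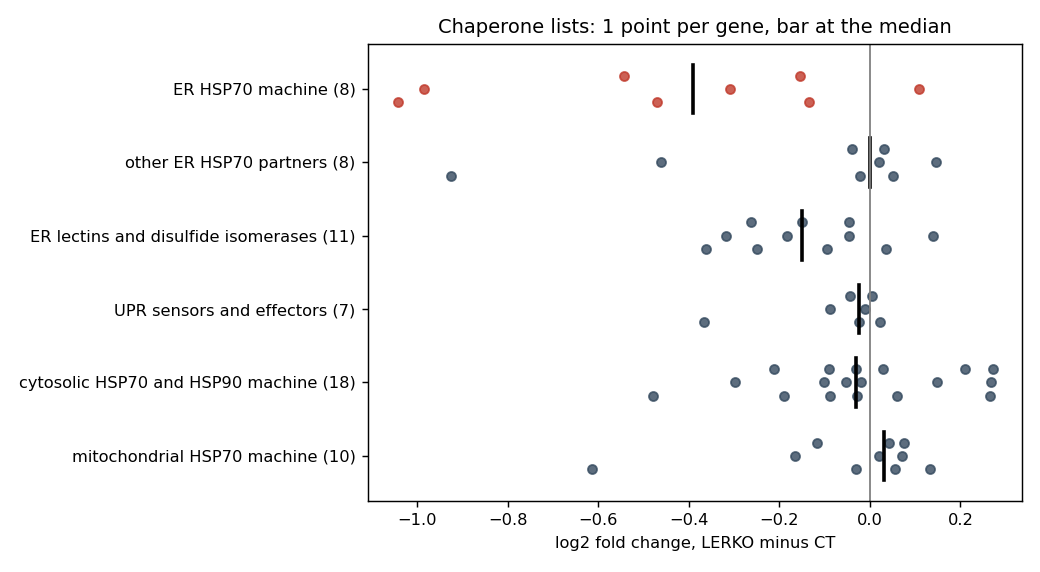
Log2 fold change, LERKO minus CT (horizontal axis), of each tested gene of the ER HSP70 machine (red) and of 5 neighbouring lists (blue), with the number of genes in brackets and a black bar at the median. The medians are −0.39 for the ER HSP70 machine and between −0.15 and 0.03 for the others.

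The genes whose pattern over the 6 arrays was most like the mean of the 8 members, among 6894 other genes, were Tmem150a (Pearson r = 0.994, log2 fold change −0.44), Sel1l3 (r = 0.993, −0.56), Slc39a1 (r = 0.989, −0.25), Esr1 (r = 0.988, −1.65) and Cdc14b (r = 0.987, −0.30). All 5 were lower in every LERKO array than in every CT array, which comes with choosing genes by likeness to a mean that separates the genotypes. The 6 arrays fall into the 2 genotypes, so that these correlations include the difference between the groups.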

How the data were processed

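The authors hybridised liver RNA of 3 LERKO and 3 CT mice, normalised the arrays by RMA (robust multichip average, oligo package) and deposited log2 signals per probe set. The package version, genome build and probe positions are not given in the sources used here. RMA subtracts background and makes the distributions of probe intensities equal between arrays before probe sets are summarised. A shift common to all genes would therefore not be seen, and small signals are compressed.

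Of 35556 probe sets, the platform annotation pairs 21218 with 1 gene, 1881 with several and 12457 with none, and genes were named only from the first kind. The study's methods remove genes with signals below 100 across all samples, which can be read in more than 1 way. If all 6 arrays must reach 100, 8849 probe sets stay, and 3 of them passed an adjusted p of 0.05 in limma. The paper reports 3 genes for LERKO at a false discovery rate of 5%, Esr1 among them. In the main fit here a probe set stayed if at least 1 of the 6 arrays had a signal of 100, and 10633 did. LERKO and CT were compared with limma 3.58.1 in R 4.3.3, genotype being the only term, two-sided, and p-values were adjusted by Benjamini-Hochberg over these 10633. The procedure was tested on simulated data.

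The members and lists were chosen with earlier results of these data known. Named were all members, Esr1, up to 3 genes of smallest p per list, markers at a signal of 100, and the 5 genes most like the members. Alternatives were a signal of 100 in all arrays, no filter, median centring, repeated quantile normalization, the mean over a gene's probe sets, a variance trend, robust variances, array weights, the methods' t-test, a replicate block, each array left out and, chosen after the data were seen, both arrays with genes of other organs left out. Replicate numbers did not pair the arrays, since deviations of same-numbered arrays correlated at −0.157, −0.073 and −0.137. The number of arrays limits the precision.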

Additional observations from a re-analysis of the deposited data

How the results depend on the processing

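The count of members lower in LERKO livers at an unadjusted p under 0.05 was 5, and 4 to 5 when each array was left out in turn, 4 with the methods' t-test and 5 with the replicate block. The share of all probe sets lower at that threshold was computed for the first of these fits only (4%). The members' median was −0.39 with the replicate block and −0.43 to −0.32 with an array left out. The count of probe sets at an adjusted p under 0.05 was 0 with all arrays and 0 with the replicate block. It was 3 where a signal of 100 was required in all 6 arrays, a filter under which 8849 probe sets were tested, and 1 (Esr1) with a variance trend, where the cause was not tested. It was 0 to 1 with an array left out, the 1 being a probe set with no gene name, without LERKO replicate 3. Hyou1 passed only with the stricter filter (adjusted p = 0.0409). Without both arrays with genes of other organs, the median of the mitochondrial list was −0.013, against 0.03, and the cause was not tested. Of the other values, 135 for single members and 64 list medians kept their direction and side of the threshold or moved by less than the spread between mice.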
